A study of Mus musculus with 5 samples.

Results

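The genes described here are 7 transcripts that mark type 2 immunity in T cells: the cytokines Il4, Il5 and Il13, the transcription factor Gata3, the receptor subunits Il1rl1 and Il17rb, and the growth factor Csf2. They were taken by symbol from the 32285 features of the 2 T cell libraries, and all 7 were found as single rows. They were picked because earlier results of the same libraries had shown Il4, Il5 and Il13 to differ between tumors, so the differences between the 2 libraries are given as descriptions. The question was which T cells held these transcripts, and in how many cells, in mouse mammary tumors that doxorubicin held back and in tumors that it did not.

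BALB/c mice, 12 weeks old by the labels, carried 4T1 tumors in the mammary fat pad. The tumor line was a Thy1.1-marked form of 4T1, a BALB/c mammary carcinoma line used to model triple negative disease, and both T cell groups carried it. Both groups had received doxorubicin, an anthracycline that damages DNA, at 5 mg/kg in 3 tail vein doses given 3 days apart. The sensitive group came from tumors whose growth the drug had inhibited, and the resistant group from tumors that had gone on growing, so the groups were defined by the outcome in the tumor. Each library pooled T cells of 3 tumors that had been enriched by depleting other immune cells and Thy1.1-bearing cancer cells, and each group had 1 library. There is therefore no replicate of either group. No test was made, differences between mice could not be measured, and every interval below is a 95% interval for counting error alone.

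T Cd4-bearing cells that take the type 2 path are known for making IL-4, IL-5 and IL-13, which act on B cells, eosinophils, macrophages and epithelium. GATA3 is the transcription factor that opens the cytokine locus and holds the cells in this state, and IL-4 acting through STAT6 raises it further. The alarmins IL-33 and IL-25, released by stressed tissue, reach such cells through receptors that contain the products of Il1rl1 and Il17rb. Innate lymphoid cells of group 2, mast cells, basophils and eosinophils can make some of the same cytokines without a T cell receptor, and regulatory T cells can carry GATA3 and the IL-33 receptor. Csf2 encodes GM-CSF, which several helper types and activated Cd8 cells make.

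The 3 type 2 cytokine genes and Csf2 lie on chromosome 11 in the GRCm38 annotation. Il4 (ENSMUSG00000000869) spans chr11:53602982-53618669 on the minus strand, and Il13 (ENSMUSG00000020383) begins 12.7 kb beyond it, at chr11:53631324-53634702 on the same strand. Il5 (ENSMUSG00000036117), on the plus strand at chr11:53720794-53725106, is separated from Il13 by 86.1 kb that hold Rad50, a DNA repair gene. Csf2 (ENSMUSG00000018916) lies 522 kb further on, at chr11:54247271-54249667 on the minus strand. Gata3 (ENSMUSG00000015619) is at chr2:9857078-9890034 on the minus strand, Il1rl1 (ENSMUSG00000026069) at chr1:40429570-40465415 on the plus strand and Il17rb (ENSMUSG00000015966) at chr14:29996135-30008896 on the minus strand.

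Promoter sequences are shown for the 3 cytokine genes because they were found together in the same cells, and for Il1rl1 because it had the most GATA matches of the 7 genes. All 7 genes matched the RefSeq promoter table of GRCm38.p6, Il4 and Il1rl1 with 2 start sites each, and the 250 bases before the start were read. Capitals mark 2 kinds of letters, searched on both strands. The hexamers bound by GATA factors were searched as AGATAA, which is the usual form, as the version that ends differently, AGATAG, and likewise in the form whose first letter differs, written TGATAA, together with the remaining combination of both changes, TGATAG. The shorter motif GGAAA is the core bound by NFAT, the calcium-regulated factor of activated T cells. No match of one kind overlapped the other in these genes. The windows are chr11:53618666-53618915 (minus strand) for the outer start of Il4, chr11:53634703-53634952 (minus) for Il13, chr11:53720544-53720793 (plus) for Il5 and chr1:40429320-40429569 (plus) for the outer start of Il1rl1.
Il4: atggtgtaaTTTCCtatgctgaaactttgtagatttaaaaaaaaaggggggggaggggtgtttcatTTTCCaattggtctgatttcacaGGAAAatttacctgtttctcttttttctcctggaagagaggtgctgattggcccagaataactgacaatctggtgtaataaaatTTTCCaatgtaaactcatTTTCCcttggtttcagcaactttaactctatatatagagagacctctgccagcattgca
Il13: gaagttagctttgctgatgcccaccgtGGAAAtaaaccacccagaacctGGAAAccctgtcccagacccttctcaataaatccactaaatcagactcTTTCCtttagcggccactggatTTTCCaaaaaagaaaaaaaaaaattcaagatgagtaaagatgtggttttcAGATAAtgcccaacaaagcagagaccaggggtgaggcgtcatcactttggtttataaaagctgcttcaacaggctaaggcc
Il5: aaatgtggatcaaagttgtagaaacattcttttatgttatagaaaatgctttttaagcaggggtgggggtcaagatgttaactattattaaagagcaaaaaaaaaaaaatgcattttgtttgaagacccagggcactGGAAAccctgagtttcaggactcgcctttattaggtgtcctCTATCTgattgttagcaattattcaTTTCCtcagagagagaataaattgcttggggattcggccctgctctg
Il1rl1: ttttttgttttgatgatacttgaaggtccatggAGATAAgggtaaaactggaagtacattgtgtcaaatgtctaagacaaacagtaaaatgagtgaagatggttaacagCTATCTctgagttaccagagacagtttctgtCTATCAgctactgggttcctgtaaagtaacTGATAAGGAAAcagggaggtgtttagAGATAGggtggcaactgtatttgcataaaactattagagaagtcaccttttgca
The outer Il4 window held 5 GGAAA matches, a number that 0.390% of 32851 promoter windows of this length reached. The Il13 window held 4, reached by 1.59% of windows, and Il5 held 2, reached by 21.4%. GGAAA was present in 55.6% of all windows and a GATA hexamer in 26.5%. Il13 and Il5 had 1 GATA hexamer each and the outer Il4 window had 0, while the outer Il1rl1 window had 5, reached by 0.0426% of windows. The inner starts differed from these: the inner Il4 window had 0 GGAAA matches and 1 GATA hexamer, and the inner Il1rl1 window had 1 of each. These matches describe the letters of the windows; binding was not measured.

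The sensitive library had 3949 barcodes and 31690845 UMIs (unique molecular identifiers, each standing for 1 captured transcript end), and the resistant library 6116 and 35908799. The limit of 10% mitochondrial UMIs removed 3.11% of sensitive and 26.5% of resistant barcodes, and 31 barcodes were shared by the libraries. After filtering, 3448 and 3091 barcodes remained, of which 1786 sensitive and 1715 resistant ones had a Ptprc (CD45) UMI and a Cd3 UMI and are called T cells. Their median depths were 4228 and 4889 UMIs. The T cells were split by their UMIs into those with Foxp3, those with Cd4, those with Cd8a or Cd8b1, those with both Cd4 and Cd8, and those with neither. Cells with Cd4 and without Foxp3, with or without a Cd8 UMI, are called Cd4-bearing cells below. There were 264 sensitive cells of this kind (14.8% of T cells) and 122 resistant ones (7.11%). A Cd8 UMI was also present in 101 of these sensitive cells and in 79 of these resistant cells. In 76 such resistant cells without cytokine UMIs the medians were 1 Cd4 and 15 Cd8 UMIs, and 1 cell had more Cd4 than Cd8, so values are also given for the 163 sensitive and 43 resistant cells with Cd4 alone. Cd8+ cells without Cd4 numbered 1190 and 1456. The T cell libraries were not pure: 1389 sensitive and 1126 resistant cells had no Cd3 UMI, and fibroblast-marker cells (768 and 535) were the most numerous of these. UMIs are not divided by gene length here, because 1 end of each transcript is captured.

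In T cells, transcripts of the type 2 cytokines were more abundant in the sensitive library. Il4, the cytokine that drives B cells towards IgE, had 889 UMIs in 83 sensitive T cells and 19 UMIs in 12 resistant ones. As UMIs per 1e+06 UMIs of the T cells (CPM), this was 86.9 against 1.69, a ratio of 51.4 (32.7 to 85.7). Il5, the growth factor of eosinophils, had 700 UMIs in 13 sensitive cells and 18 in 1 resistant cell, a CPM ratio of 42.7 (26.8 to 72.5). Il13, which acts on epithelium, fibroblasts and macrophages, had 3279 UMIs in 95 cells against 335 in 9, a CPM ratio of 10.7 (9.60 to 12.1). Gata3 had 1083 UMIs in 482 cells against 398 in 295, and its CPM ratio was 2.99 (2.66 to 3.36). The IL-33 receptor gene Il1rl1 had 203 UMIs in 94 cells against 90 in 49, a ratio of 2.48 (1.92 to 3.21). Csf2 had 1100 UMIs in 83 cells against 423 in 60, a ratio of 2.85 (2.55 to 3.20). Il17rb, the IL-25 receptor subunit, was near the limit of detection with 12 UMIs in 10 cells against 8 in 4, and the interval of its ratio (0.619 to 4.64) includes 1. Thus 6 of the 7 genes had a ratio of at least 2, a size that 3.95% of the 12560 genes with at least 20 UMIs reached in this direction. Csf2 fell below that size in 2 settings, at 1.87 with the 20% mitochondrial limit and 1.96 as a mean over cells. The choice of the genes used this contrast, so nothing is read from that count. The median ratio over 9613 well-covered genes was 1.09.

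**Figure D1:**
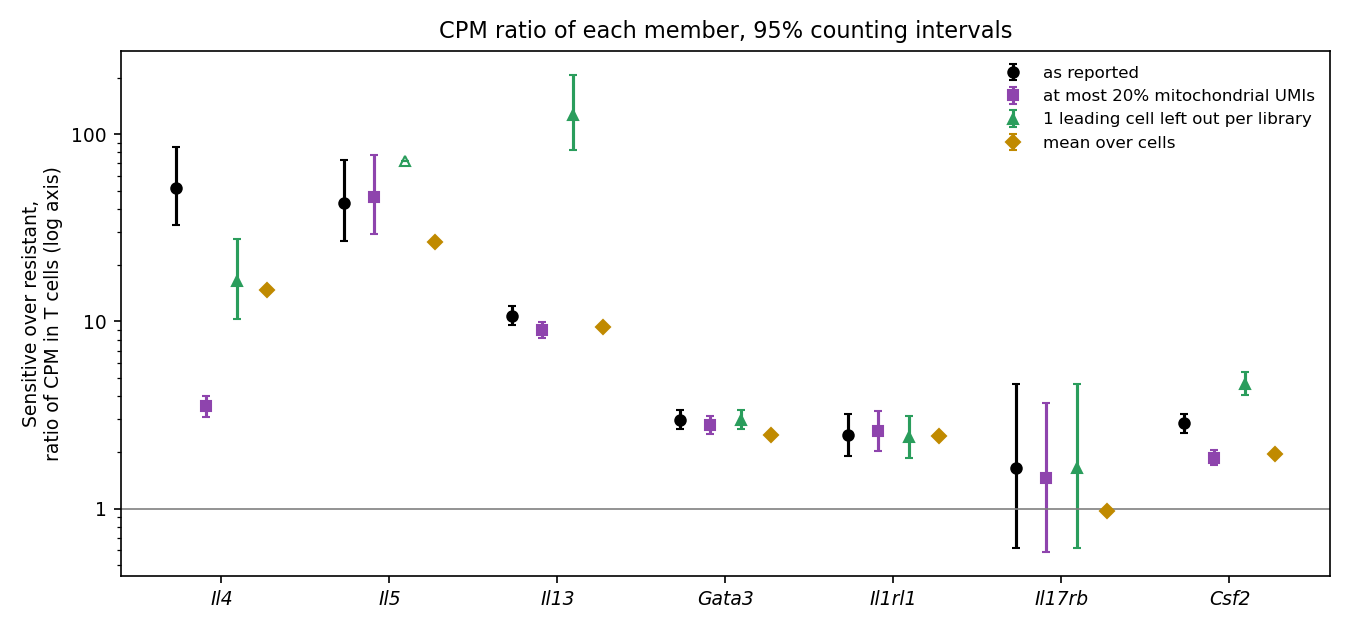
Ratio of CPM in sensitive over resistant T cells for each gene (log axis), with 95% counting intervals where they exist, as reported and under 3 other settings; the open triangle of Il5 sets the resistant count of 0 to 3 and is a lower bound. Il4 falls from 51.4 to 3.52 when the mitochondrial limit is 20%, and Il13 rises from 10.7 to 127 when the leading cell of each library is left out, while Gata3 lies between 2.48 and 2.99 in the settings drawn.

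Few cells held most of these cytokine UMIs. One Cd4+ cell of the sensitive library had 606 Il4 UMIs, which was 68.2% of the library's Il4 in T cells. The same cell had 503 of the 700 Il5 UMIs (71.9%) and 973 of the 3279 Il13 UMIs (29.7%). Together these 3 transcripts made up 8.99% of the 23161 UMIs in the cell. It had 111 Cd3 and 17 Cd4 UMIs, no Cd8 UMI and 14 Gata3 UMIs, and 0.0043% of its UMIs were of fibroblast, epithelial, endothelial, macrophage or neutrophil markers. Its doublet score ranked 2388th from the top among kept barcodes. It was a deep cell, but 29 T cells of the library were deeper.

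The cells next in order differed in which cytokine they held. The second sensitive cell had 543 Il13 and 72 Il5 UMIs but 2 of Il4. The third had 262 Il13 UMIs, 5 of Il4 and no Il5. The fourth was the other cell with much Il4, with 106 Il4 and 50 Il13 UMIs. Every other sensitive T cell had at most 10 Il4 UMIs. Il13 was the cytokine spread over most cells: 53 sensitive T cells had at least 5 Il13 UMIs, against 10 for Il4 and 8 for Il5. The smallest number of cells holding 50% of the UMIs was 1 for Il4, 1 for Il5 and 3 for Il13, but 88 for Gata3.

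**Figure D2:**
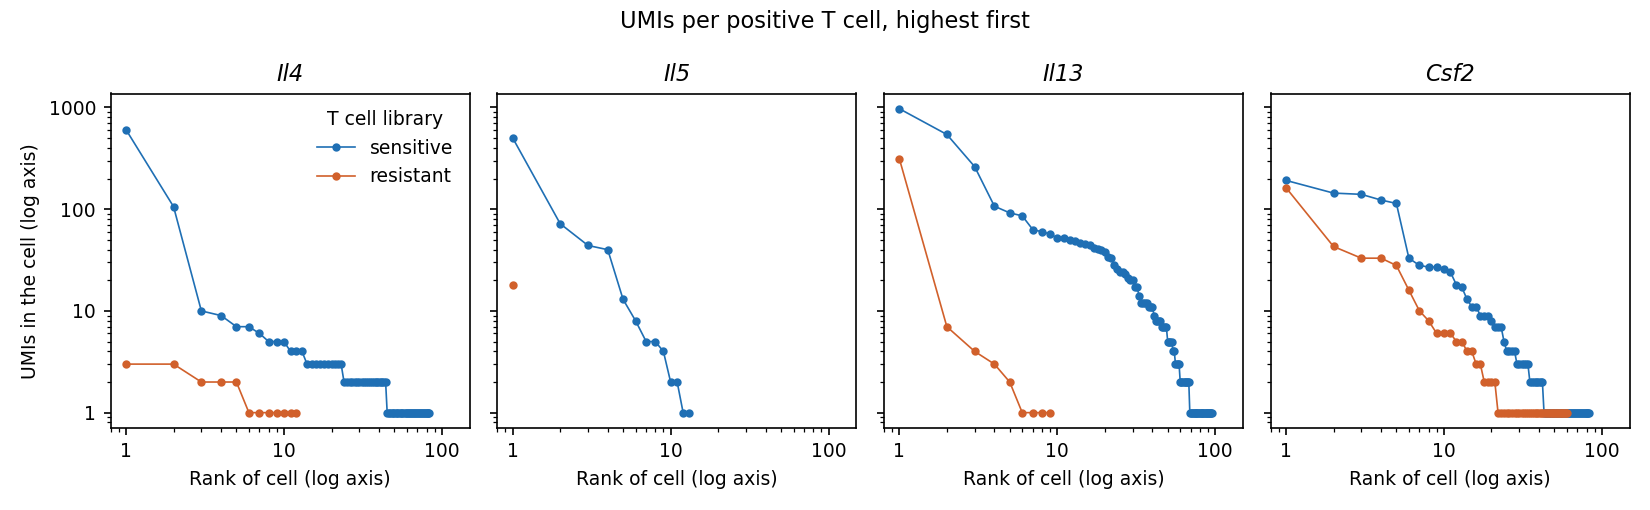
UMIs in each positive T cell, ranked from the highest (both axes logarithmic), for Il4, Il5, Il13 and Csf2 in the sensitive and resistant libraries. Il13 of the sensitive library falls from 973 UMIs along a long shoulder of cells, whereas Il4 falls from 606 and 106 to 10 by the third cell and resistant Il13 from 315 to 7 by the second.

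Among resistant T cells Il13 and Il5 were more concentrated still, while Il4 was not, with at most 3 of its 19 UMIs in a cell. A single Cd4+ cell of 11269 UMIs held 315 of the 335 Il13 UMIs (94%), all 18 Il5 UMIs and 163 of the 423 Csf2 UMIs (38.5%). It had no Il4 UMI and 4 Gata3 UMIs. The next resistant cell had 7 Il13 UMIs. Among genes with at least 100 UMIs, the leading cell held a median of 1.65% of a gene's UMIs in the sensitive library (7805 genes) and 1.56% in the resistant library (7879 genes). In the sensitive library, 23 of those genes had a larger share in 1 cell than Il4, 20 than Il5 and 77 than Il13. In the resistant library 7 genes exceeded Il13. Gata3 was not concentrated, with 2.12% and 2.01% of its UMIs in its leading cell.

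Leaving out the cell with the most cytokine UMIs from each library therefore moved the ratios, in opposite directions. The Il4 ratio became 16.4 (10.3 to 27.6), and the Il13 ratio became 127 (81.9 to 208). For Il5 the resistant count fell to 0, and against 3 counts the sensitive level was at least 72.2-fold higher. The summed ratio of the 3 cytokines went from 14.4 (12.9 to 16) to 78.5 (57.3 to 111). In all of these the sensitive library was higher. This setting was chosen after the concentration had been seen.

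A count of cells is less exposed to single cells than a sum of UMIs. A UMI of Il4, Il5 or Il13 was found in 130 of 1786 sensitive T cells (7.28%) and in 21 of 1715 resistant ones (1.22%), a ratio of shares of 5.94 (3.77 to 9.38). With every cell thinned to 1000 UMIs, 4.06% and 0.409% were positive, giving 9.93 (4.58 to 21.5), and 12 sensitive and 2 resistant cells were too shallow to enter. Over all settings tried this ratio of shares lay between 5.56 and 9.93. At least 5 UMIs of the 3 genes together were found in 60 sensitive cells (3.36%, 2.57 to 4.30) and 2 resistant cells (0.117%, 0.014 to 0.421). In fibroblast-marker cells without Cd3, which should lack these transcripts, 3 of 768 sensitive and 1 of 535 resistant cells had a UMI (0.391% and 0.187%) at median depths of 12995 and 13692. After thinning these were 1 of 757 and 0 of 534.

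The Il4 level ratio depended on the mitochondrial limit, while the ratio of shares of positive cells changed little. Of 1618 resistant barcodes over 10% mitochondrial UMIs, 880 had Ptprc and Cd3 UMIs, and 1 of them held most of the removed cytokine. This Cd4+ barcode of 8234 UMIs, at 10.2% mitochondrial UMIs, had 310 Il4, 154 Il13 and 295 Csf2 UMIs, with 21 Cd3 UMIs, 1 Cd4 UMI and no UMI of a mast cell or basophil marker. The remaining 15 Il4 UMIs removed for this reason lay in 9 barcodes. In the sensitive library the limit removed no Il4 UMI and 59 Il13 UMIs, all in 1 barcode. With the limit at 20%, the Il4 ratio was 3.52 (3.10 to 4.01) in place of 51.4, the Il13 ratio 9.0 and the Csf2 ratio 1.87. The ratio of shares of positive cells was 5.86 at this limit. The Il4 ratio thus turned on 1 cell in each library.

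**Figure D3:**
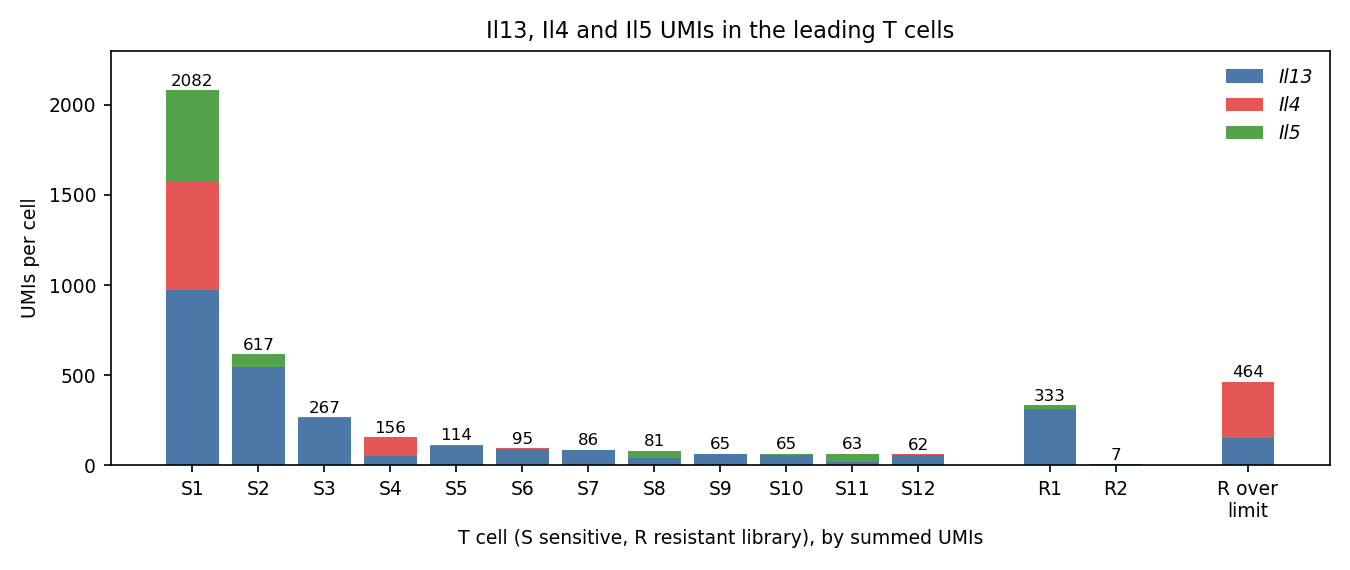
Il13, Il4 and Il5 UMIs, stacked, in the 12 leading sensitive T cells (S1 to S12), the 2 leading resistant T cells (R1, R2) and the resistant barcode removed at 10.2% mitochondrial UMIs (R over limit). The totals run from 2082 to 62 in the sensitive cells and are 333, 7 and 464 in the resistant ones, and Il4 makes up a visible part of S1, S4 and the removed barcode.

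The cytokine-positive cells of the sensitive library were mainly Cd4-bearing cells. Of the 130 positive cells, 105 (80.8%, 72.9 to 87.2) had Cd4 and no Foxp3, although this gate held 14.8% of the T cells. They carried 96.0% of the UMIs of the 3 cytokines. Another 16 positive cells had neither Cd4 nor Cd8, 7 had Cd8 without Cd4, and 2 had Foxp3. In the resistant library 8 of 21 positive cells (38.1%, 18.1 to 61.6) were Cd4-bearing cells, 7 had neither coreceptor, 6 had Cd8 and 0 had Foxp3. Those 8 cells still carried 93.8% of the UMIs, because the leading cell was among them. Positive resistant cells outside this gate had at most 4 UMIs each.

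Among Cd4-bearing cells the sensitive library had a larger share of positive cells, by an amount that depended on whether cells with Cd8 UMIs were counted. Il4, Il5 or Il13 was found in 105 of 264 sensitive Cd4-bearing cells (39.8%, 33.8 to 46.0) and in 8 of 122 resistant ones (6.56%), a ratio of 6.07 (3.05 to 12.0). Il13 was found in 83 and 6 of them, and Il4 in 68 and 2. The Il13 CPM ratio within this gate was 3.83 (3.42 to 4.31), smaller than that of the cell counts, with 315 of the 329 resistant UMIs in 1 cell. In cells with Cd4 alone 69 of 163 sensitive cells (42.3%) and 5 of 43 resistant cells (11.6%) were positive, a ratio of 3.64 (1.57 to 8.46). There the summed CPM ratio of the 3 cytokines was 1.80 (1.61 to 2.01), in place of 5.42 (4.86 to 6.06), and the Il13 ratio 1.18 (1.05 to 1.34), with 315 of the 320 resistant Il13 UMIs in 1 cell. Il4 had 709 UMIs against 1 in these cells, a ratio of 127 (22.7 to 5028), with 606 of the 709 in the leading cell. The resistant barcode removed at 10.2% mitochondrial UMIs also had Cd4 without Cd8, with 310 Il4 and 154 Il13 UMIs, and is not counted here. Counting it would put resistant Il4 above the 667 CPM of the sensitive cells. The direction of Il4 in cells with Cd4 alone thus turned on single barcodes. The Il5 ratio in the kept cells with Cd4 alone was 5.72 (3.58 to 9.72). In Cd4-bearing cells as a whole 5 of the 6 genes with enough UMIs had a ratio of at least 2, against 7.38% of 8663 genes, and 0 had one of at most 0.5, against 3.06%. Csf2 was the exception. The choice of the genes used the contrast between these libraries, so nothing is read from this count either. With Cd4 alone the Il13 ratio was below 2, and that of Csf2 was 0.230 (0.190 to 0.278).

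Of Cd8+ cells, 0.588% of sensitive and 0.412% of resistant ones had a UMI of the 3 cytokines, at median depths of 4190.5 and 4935.5 UMIs. Per UMI they held 7.11 and 1.04 CPM, against 0.409 and 0.112 CPM in the deeper fibroblast-marker cells. After thinning to 1000 UMIs, 1 of 1186 sensitive and 0 of 1455 resistant Cd8+ cells remained positive, so no difference could be read at this depth. A single sensitive Cd8+ cell had 32 of the 46 UMIs (28 of Il13 and 4 of Il4), and 1 sensitive cell with neither coreceptor had 86. In the 17 sensitive cells that had both coreceptors and at least 5 cytokine UMIs, Cd4 UMIs ranged from 2 to 16 (median 6) and Cd8 UMIs from 1 to 74 (median 9), and 9 cells had more Cd4 than Cd8. In the 65 cells with both coreceptors and no cytokine UMI, the medians were 2 and 21 UMIs, and 5 had more Cd4.

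**Figure D4:**
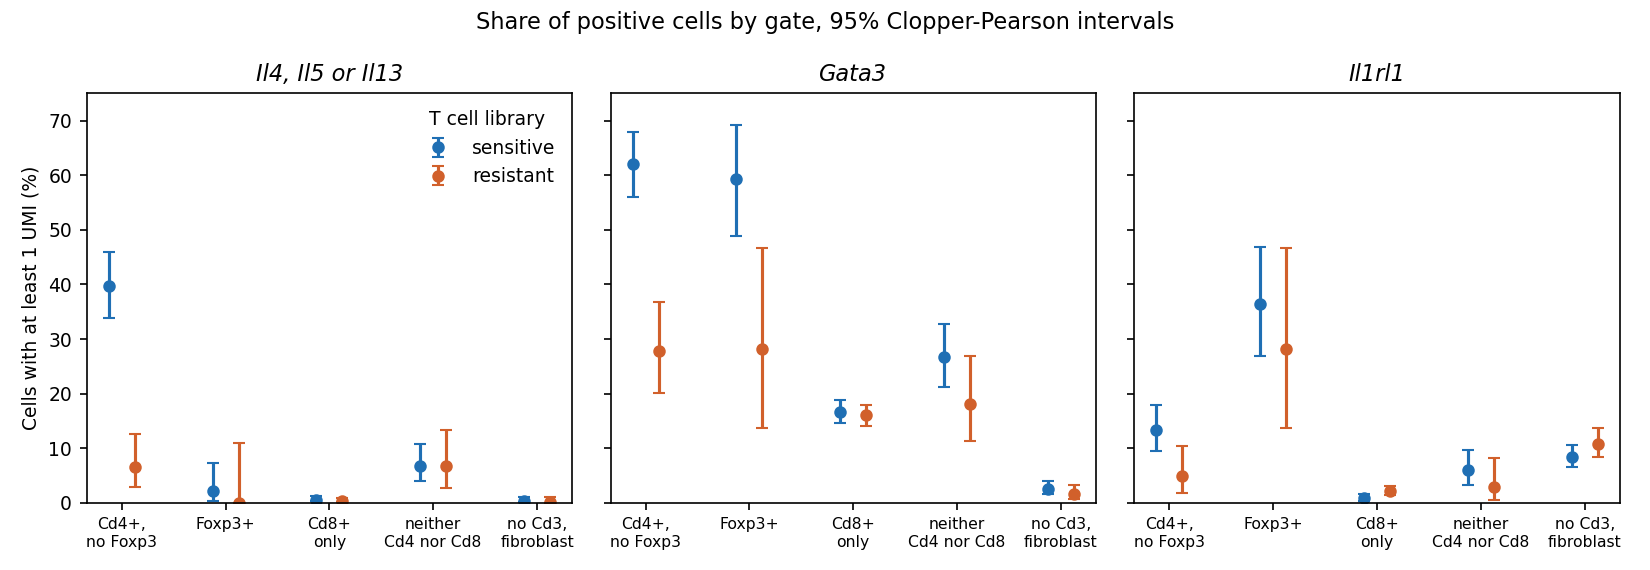
Percent of cells with at least 1 UMI of Il4, Il5 or Il13 (left), Gata3 (middle) and Il1rl1 (right) in each gate of both T cell libraries, with 95% Clopper-Pearson intervals. The cytokine share is 39.8% in sensitive and 6.56% in resistant Cd4+ cells without Foxp3, Gata3 is higher in sensitive Cd4+ and Foxp3+ cells while the Cd8+ shares lie at 16.6% and 16%, and Il1rl1 is most frequent in Foxp3+ cells.

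Gata3 was found widely, and its ratio between the libraries was smallest in Cd8+ cells among the gates. Its level in Cd4-bearing cells was 257 CPM for the sensitive tumors and 75.1 CPM for the resistant ones, 3.43 times as high (2.64 to 4.52). It was detected in 164 of 264 (62.1%) and 34 of 122 (27.9%) of them. With Cd8-bearing cells left out the levels were 307 and 152 CPM, a ratio of 2.02 (1.38 to 3.06), and 97 of 163 (59.5%) and 16 of 43 (37.2%) were positive. Regulatory T cells, marked by Foxp3, had 224 and 102 CPM, a ratio of 2.20 (1.38 to 3.70), and cells with neither coreceptor had 147 and 44.0 CPM. In Cd8+ cells the levels were 38.5 and 30.1 CPM, a ratio of 1.28 (1.08 to 1.52), with 16.6% and 16% of cells positive. Thinned to 1000 UMIs, 4.47% and 2.82% of Cd8+ cells were positive, a ratio of 1.59 (1.06 to 2.37). In fibroblast-marker cells 2.60% and 1.68% had a Gata3 UMI. Cd8+ cells made up 66.6% of sensitive and 84.9% of resistant T cells, so the ratio of 2.99 over all T cells combines the levels within gates with the sizes of the gates. Over the settings tried the ratio over all T cells lay between 2.48 and 3.03.

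Within sensitive Cd4-bearing cells, Gata3 was higher where the cytokines were found. Cells with no Il4, Il5 or Il13 UMI had 168 CPM (145 to 195), and 74 of 159 were positive (46.5%). Cells with 1 to 4 UMIs had 323 CPM (271 to 383), cells with 5 to 19 had 376 (307 to 455), and cells with 20 or more had 367 (303 to 441). The last 3 intervals overlap one another, and none overlaps that of the cells at 0. Gata3 was detected in 27 of the 29 cells with 20 or more cytokine UMIs. The median depths of the 4 sets were 4514, 6274, 7392 and 9491 UMIs, and the part of depth in the shares of positive cells was not tested. Resistant Cd4-bearing cells with no cytokine UMI had 72.6 CPM (54.8 to 94.2) of Gata3, below sensitive cells that also had none, in a gate with more Cd8-bearing cells. These cells come from 1 library and share its preparation, so the values describe that library.

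**Figure D5:**
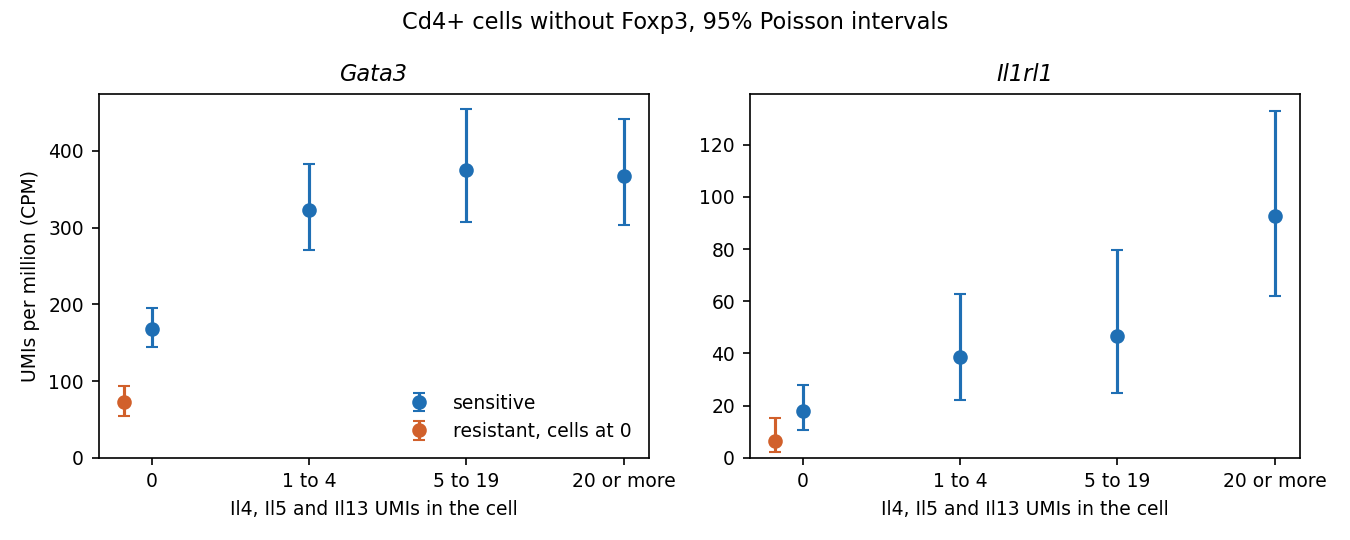
CPM of Gata3 (left) and Il1rl1 (right) in sensitive Cd4+ cells without Foxp3, by the number of Il4, Il5 and Il13 UMIs in the cell, with 95% Poisson intervals, and in resistant cells with 0 such UMIs. Gata3 is 168 CPM at 0 UMIs and between 323 and 376 CPM in the other sets, while Il1rl1 runs from 17.9 to 92.7 CPM. The highest Il1rl1 value is 29 UMIs in 7 of 29 cells.

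Il1rl1, which encodes the IL-33 receptor ST2, had another distribution than the cytokines. In the sensitive library it was most frequent in Foxp3+ cells, with UMIs in 35 of 96 (36.5%) at 125 CPM. In the resistant library 9 of 32 Foxp3+ cells (28.1%) had it, at 56.0 CPM, a ratio of 2.23 (1.19 to 4.64). Cd4-bearing cells had 77 UMIs in 35 sensitive cells and 6 UMIs in 6 resistant ones, a CPM ratio of 5.20 (2.28 to 14.6). With Cd8-bearing cells left out it was 2.45, with an interval (0.782 to 12.4) that includes 1. Among sensitive Cd4-bearing cells the level was 17.9 CPM (10.8 to 27.9) without cytokine UMIs and 92.7 CPM (62.1 to 133) with 20 or more. The latter was 29 UMIs in 7 of 29 cells (24.1%), and 6 of these UMIs lay in the leading cytokine cell. Cells with 5 to 19 cytokine UMIs had 46.5 CPM (24.8 to 79.5), with 7 of 27 positive (25.9%). Without cytokine UMIs 13 of 159 were positive (8.18%). Between the libraries Cd8+ cells went the other way, with 11 UMIs in 10 sensitive and 66 UMIs in 31 resistant cells, a ratio of 0.247 (0.118 to 0.471). Shares of 0.840% and 2.13% of Cd8+ cells lie below those of fibroblast-marker cells, where 8.46% and 10.8% had Il1rl1 UMIs, and after thinning 4 of 1186 sensitive and 6 of 1455 resistant Cd8+ cells remained positive. The thinned ratio of shares was 0.818 (0.231 to 2.89), an interval that includes 1, so the direction was not resolved at equal depth. A single resistant Cd8+ cell had 11 of the 66 UMIs. Fibroblast-marker cells held 205 sensitive and 203 resistant UMIs, as many as or more than the T cells of the same library. With cells of over 1% other-lineage UMIs left out, the Cd8+ ratio of Il1rl1 was 0.421 (0.194 to 0.841) and the ratio over all T cells 3.67 in place of 2.48.

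Il17rb was too rare to describe by lineage in the resistant library. Of its 12 sensitive UMIs in T cells, 8 lay in Cd4-bearing cells, 4 in cells with neither coreceptor and 0 in Cd8+ or Foxp3+ cells. In the resistant library 3 of its 8 UMIs lay in 1 Cd4-bearing cell. Among cells without Cd3, 18 sensitive cells and 1 resistant cell had an Il17rb UMI, and 11 of the 18 had UMIs of a T cell receptor constant gene. Barcodes with Cd3 but without Ptprc went the other way, with 1 UMI in 1 sensitive barcode and 10 UMIs in 4 resistant ones.

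Csf2 was shared between lineages. Cd4-bearing cells held 802 of its 1100 sensitive UMIs and 288 of its 423 resistant ones. Within these cells its levels were 387 and 343 CPM, a ratio of 1.13 (0.985 to 1.30) whose interval includes 1. That ratio turned on single cells: it was 2.59 (2.15 to 3.16) with the leading cytokine cell of each library left out and 0.769 (0.691 to 0.857) with the 20% mitochondrial limit. In Cd4+ cells without Cd8 it was lower in the sensitive library, 240 against 1044 CPM, with 163 of the 199 resistant UMIs in 1 cell. Cd8+ cells had 111 and 120 UMIs in 29 and 41 cells, a CPM ratio of 1.37 (1.05 to 1.79). The shares of positive Cd8+ cells were 2.44% and 2.82%, against 0.651% and 0.187% of the deeper fibroblast-marker cells. After thinning 13 of 1186 sensitive and 4 of 1455 resistant Cd8+ cells were positive, a ratio of shares of 3.99 (1.30 to 12.2), in place of 0.865 (0.541 to 1.38) unthinned. At least 5 Csf2 UMIs were found in 24 sensitive and 13 resistant T cells. Of these, 17 sensitive and 5 resistant cells were Cd4-bearing cells, while 4 and 7 were Cd8+ cells. With the leading cytokine cell of each library left out the ratio over all T cells was 4.65 (4.06 to 5.34).

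The cytokines were often found in the same cells. Of 95 sensitive T cells with Il13, 51 (53.7%) also had Il4, 79 (83.2%) had Gata3 and 23 (24.2%) had Csf2. For comparison, 4.65% of all sensitive T cells had Il4, 27.0% had Gata3 and 4.65% had Csf2. Most positive cells were Cd4-bearing, and within that gate the contrasts were smaller. There Gata3 was in 85.5% of Il13-positive and 51.4% of Il13-negative cells, and Il4 in 57.8% and 11%. Csf2 was in 27.7% of Il13-positive and 9.94% of Il13-negative cells, but in 13.2% of Il4-positive and 16.3% of Il4-negative ones. Of 83 cells with Il4, 51 (61.4%) had Il13 and 9 (10.8%) had Csf2. Il5 was the rarest, and 10 of its 13 cells had Il13 while 7 had Il4. All 3 cytokines were found in 7 cells. There were 41 cells with Il13 alone and 32 with Il4 alone. Among the 60 cells with at least 5 UMIs, 53 had more UMIs of Il13 than of Il4, 6 had more of Il4, and 20 had no Il4 UMI at all. When 2 UMIs of each gene were required, 39.7% of Il13 cells had Il4 and 66.2% had Gata3.

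Cells rich in cytokine and cells rich in Csf2 overlapped in part. Of the 60 sensitive cells with at least 5 UMIs of Il4, Il5 and Il13, 13 had any Csf2 UMI, and 7 of the 24 cells with at least 5 Csf2 UMIs were among the 60. In the leading cell Csf2 was at 0. In the resistant library no cell among the kept T cells had both Il4 and Il13, although the removed barcode did, and the 12 Il4 cells had at most 3 UMIs each. The 1 resistant Il5 cell also had Il13, Gata3 and Csf2.

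Cells without Cd3 held little of the cytokines. In the sensitive library 11 of 1389 such cells had 17 UMIs of Il4, Il5 and Il13, at most 4 in a cell, and in the resistant library 4 of 1126 had 6 UMIs. Of these, 4 sensitive and 2 resistant cells were named by mast cell or basophil markers, cell types known to make IL-4 and IL-13. The libraries held 12 and 3 cells so named and 0 named by eosinophil markers, after a depletion meant to remove such cells. Cells with Ptprc, Gata3 and Il7r but without Cd3 or T cell receptor constant genes, the pattern of group 2 innate lymphoid cells, numbered 3 and 2 and had no UMI of the 3 cytokines. Barcodes with a Cd3 UMI but without Ptprc had the cytokines in 17 of 273 sensitive and 4 of 250 resistant cases. Gata3 without Cd3 lay mostly in epithelial-marker cells, with 230 of 335 sensitive and 269 of 317 resistant UMIs; Gata3 is also known as a factor of the mammary epithelium.

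The 60 sensitive T cells with at least 5 cytokine UMIs were set against the 208 other sensitive Cd4-bearing cells as a description, since the cells had been chosen by their own transcripts. The 208 included 49 cells with 1 to 4 cytokine UMIs and 65 cells with Cd8 UMIs and no cytokine UMI. Cells with Cd4 alone were not set apart in this comparison. Of the 60, 39 had Cd4 alone, 17 had both coreceptors, 2 had Cd8 alone, 2 had neither and 0 had Foxp3. Their median depth was 9155.5 UMIs against 4985.5. Of the 10 genes that led by fold (with 10 CPM added), Mcpt8, Areg, C1qb, C1qa, C1qc and Fxyd7 each had between 97.8% and 99.2% of their UMIs in 1 cell. The cell with 161 UMIs of the basophil protease gene Mcpt8 also had 62 Cd3, 6 Cd4 and 20 Il13 UMIs and 1 Il4 UMI. The 3 C1q genes, complement genes of macrophages, lay in a single cell of 23267 UMIs with 11 Cd3, 2 Cd4 and 13 Il5 UMIs and none of Il4 or Il13. These 2 droplets had passed the removal of putative doublets, and whether they held more than 1 cell was not tested further. The leaders found in more cells were Crabp2, a retinoic acid carrier (9.86-fold, 21 cells), Il1r2, the decoy receptor of IL-1 (9.62-fold), and Cyp11a1, the enzyme that begins steroid synthesis from cholesterol (7.23-fold). Il1r2 was found in 43 of the 60 cells (71.7%) and in 17.3% of the others. Cyp11a1 was found in 30 of them (50%) and in 12.0% of the others. Akr1c18, a progesterone-metabolizing enzyme, led by 7.14-fold but lay in 6 cells.

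Other genes of these cells were looked at by name. Gata3 was found in 54 of the 60 cells (90.0%) and in 54.8% of the other Cd4-bearing cells, a fold of 1.81. Il1rl1 was found in 15 of the 60 cells and in 10.1% of the others. Il2ra, the high-affinity IL-2 receptor chain, was found in 76.7% and 38.0%, and Pparg, a nuclear receptor tied to type 2 helper cells, in 35.0% and 8.65%. Hdc, which makes histamine, was found in 40.0% and 7.21%. Tbx21, the factor of type 1 helper cells, was found in 12 of the 60 cells and in 29.3% of the others, with a fold of 0.643. Ptgdr2 and Il9, often used to mark type 2 cells, had no UMI in either set. Rad50, between Il13 and Il5 in the genome, was found in 53.3% and 24.5% of cells (2.09-fold), and Irf1, beyond Il5, had a fold of 0.642. Il2ra, Hdc, Pparg, Tbx21 and the neighbors of the locus come from lists written for this work with earlier results known.

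Genes whose pattern was most like that of Il13 over the 1786 sensitive T cells were Il1r2 (Pearson r = 0.579), Lgals7 (0.571), Scin (0.556), Il4 (0.531) and Cyp11a1 (0.531), out of 10777 genes found in at least 20 cells. In the resistant library the same genes had r of 0.319, 0.131, 0.095, -0.004 and 0.097 with Il13. Resistant Il13 lay in 9 cells, with 315 of its 335 UMIs in 1, so these r rest on few cells. Il5 and Csf2, which that cell also held, had r of 0.799 and 0.408 there, against 0.446 and 0.255 in the sensitive library. The genes nearest to Gata3 in the sensitive library were Tnfrsf4 (0.405), Lgals7 (0.398), Cyp11a1 (0.373), Cd40lg (0.354) and Cd4 (0.352). These are descriptions across cells of 1 library, on log-scaled sparse counts that share depth and gate composition.

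The cytokine-rich cells did not share 1 receptor segment. A T cell receptor beta variable segment was detected in 51 of the 60 cells, 15 different segments were represented, and the most frequent, Trbv1 and Trbv19, were found in 7 cells each (13.7%). In the other sensitive Cd4-bearing cells Trbv13-2 was the most frequent, in 35 of 175 cells with a segment (20%). The 2 resistant cells with at least 5 cytokine UMIs had Trbv13-1 and Trbv20.

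Of 51 further genes of the type 2 pathway, 45 had at least 20 UMIs over the T cells of both libraries. Of these, 14 had a ratio of at least 2, 3 had a ratio of at most 0.5 and 28 lay between, with a median of 1.45, against 3.95% and 3.03% of all genes tested. Among the cytokines, Il10, an anti-inflammatory cytokine, had 120 UMIs against 8 (ratio 16.5, 8.09 to 39.0), and Il21, a helper cytokine for B cells, had 55 against 3 (20.1, 6.54 to 101). A single sensitive T cell held 24 of the 55 Il21 UMIs. Within Cd4-bearing cells Il21 had 26 UMIs against 3 (3.51, 1.08 to 18.1) and Il10 74 against 1 (30.0, 5.22 to 1200). Areg, a growth factor of tissue repair, had 1135 against 390 (3.19). A single sensitive cell held 450 of the Areg UMIs. Without it the ratio was 1.93, below the cut of 2, and with the leading Areg cell of each library left out it was 2.50, or 1.31 (0.688 to 2.65) in Cd4-bearing cells. With each gene's leading cell left out in both libraries, 13 of the 14 higher and all 3 lower ratios stayed past the same cuts. Among the receptors, the chemokine receptor Ccr4 had 72 UMIs against 16 (4.94, 2.85 to 9.10), and Ccr8 had 1117 against 410 (2.99, 2.67 to 3.36). Il4ra, the receptor chain shared by IL-4 and IL-13, had a ratio of 1.44. Among the transcription factors, Pparg had 80 UMIs against 13 (6.76, 3.73 to 13.2), Maf 532 against 194 (3.01) and Batf 1364 against 610 (2.45), while Stat6, which carries the IL-4 signal, had a ratio of 1.22 and Tbx21 of 1.42. In Cd4-bearing cells 10 of 33 tested genes had a ratio of at least 2 and 2 of at most 0.5, against 7.38% and 3.06% of all genes tested. With each gene's leading cells left out, Areg and Ccl24 (1.60) fell below 2 there, and both lower calls were lost, as Csf2rb went from 0.499 to 1.09 and Ccl17 had no resistant UMI left. The ratio of Maf in these cells was 1.30 (0.917 to 1.88) and that of Pparg 8.24 (2.69 to 41.0). Ccl22, a chemokine that attracts Ccr4-bearing cells, had 13 UMIs against 80 (0.178, 0.0910 to 0.323), in 4 and 11 cells.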

How the data were processed

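T cells from doxorubicin-sensitive and doxorubicin-resistant 4T1 tumors were profiled with 10x Chromium 3' chemistry, 1 library a group. The deposited values are raw UMI counts per gene and barcode, made by the authors with Cell Ranger (version 6.0.0 for the T cell and 3.0.1 for the whole-tumor libraries, per the file headers) on mm10; the whole-tumor counts use another feature list and were used for the closing section alone. The study's methods state default parameters. Barcodes were kept if they had 500 or more genes and no more than 10% mitochondrial UMIs, and Scrublet (scanpy 1.11.5) scores were used to remove putative doublets at 0.8% per 1000 barcodes (112 sensitive, 159 resistant). T cells were gated on Ptprc and any of Cd3d, Cd3e or Cd3g, and split by Foxp3, Cd4, Cd8a and Cd8b1. Cells without Cd3 were named by the marker list with the most UMIs (at least 5).

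CPM were summed UMIs of a gene over summed UMIs of the cells. With 1 library a group no model was fitted. Intervals are exact Poisson for CPM, exact conditional binomial for ratios, Clopper-Pearson for shares and delta-method for ratios of shares, and cover counting error; a count of 0 was read against a floor of 3 counts. UMIs were also thinned to 1000 a cell. The ratio step was tested on simulated counts. Coordinates are from GENCODE and promoters from RefSeq, both GRCm38 (mm10). Named genes were the 7 genes, listed pathway genes past a ratio of 2 or 0.5 (at most 12) with a few listed genes given as reference, the 5 most correlated with Il13 and with Gata3, and the 10 leading genes of the cytokine-rich cells; others named were chosen after their values were seen. The genes and lists were chosen with earlier results of these data known. Python 3.11.15, numpy 2.4.6, scipy 1.17.1 and pandas 2.3.3 were used. Alternatives were doublets kept, a 20% mitochondrial limit, a gate on Cd3e, at least 2 Cd3 UMIs, cells over 1% other-lineage UMIs left out, means over cells, median-gene scaling, leading cells left out, at least 2 UMIs and thinning.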

Additional observations from a re-analysis of the deposited data

Results flagged for a closer look

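Csf2 in the whole-tumor libraries, which no comparison above uses, was 34.6 CPM (26.4 to 44.6, 60 UMIs in 7 of 275 barcodes) in the resistant-labelled library, above the 15.1 CPM (9.78 to 22.3, 25 UMIs in 11 of 501 barcodes) of the saline-control library. The sensitive-labelled library had 0 Csf2 UMIs of 537293, which at a floor of 3 counts allows up to 5.58 CPM. A single barcode held 21 of the 60 UMIs. The labels of the resistant-labelled library disagree on its response, so no direction is drawn from it.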

How the results depend on the processing

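Of 129 alternative values, 94 stayed within the counting error of the value reported, 35 moved beyond it and 0 reversed a ratio whose interval excluded 1. The Il4 ratio of cells with Cd4 alone was not among these values. The Il17rb ratio (1.65), whose interval includes 1, was 0.971 as a mean over cells. In Cd4-bearing cells that of Csf2 (1.13) was 2.59, 0.769 and 0.230 in the settings added after seeing the data, the last with Cd8-bearing cells left out. The summed ratio of Il4, Il5 and Il13 (14.4) was 7.66 with at most 20% mitochondrial UMIs, 10.7 as a mean over cells, 81.7 without the 5 leading cells and 78.5 without the 1 leading cell of each library, the last added after seeing the data. The Gata3 ratio (2.99) was 2.48 as a mean over cells. After thinning to 1000 UMIs the Cd4-bearing share of positive sensitive cells was 90.3% in place of 80.8%, and the ratio of positive shares 9.93 in place of 5.94. With 2 UMIs required of each gene, Il13 cells with Il4 were 39.7% in place of 53.7% and those with Gata3 66.2% in place of 83.2%. Over all kept barcodes the leading cell held 32.3% of resistant Csf2 in place of 38.5%. Single genes ranged most for Il4 (3.52 to 57.5) and Il13 (9.0 to 359). Where the moves come from single cells, those cells are described above; other causes were not tested. No paired analysis was possible because each group has 1 library. With 1715 to 1786 T cells, Il17rb and resistant Il5 cannot be resolved by lineage.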

Other observations

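In the whole-tumor libraries Il4 had 4 UMIs in 3 of 501 control barcodes and 0 in the sensitive-labelled and resistant-labelled libraries, and Il5, Il13 and Il17rb had 0 in the 3 libraries, which at a floor of 3 counts allows up to 1.81, 5.58 and 1.73 CPM in the control, sensitive-labelled and resistant-labelled libraries. Gata3 had 66, 1 and 100 UMIs in the control, sensitive-labelled and resistant-labelled libraries, and Il1rl1 had 19, 2 and 3.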
